A study of Homo sapiens with 7 samples.

Results

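The genes described here are 10 feedback, receptor and effector genes of the canonical Wnt pathway: the ligand WNT7B, the receptors FZD5 and LGR5, the membrane ubiquitin ligases RNF43 and ZNRF3, the destruction complex scaffolds AXIN2 and APC, the effector CTNNB1 and the nuclear factors TCF7L2 and LEF1. They are 10 of the 20033 protein-coding genes of GENCODE release 44 that were examined. They are a list of gene names with no rule on signal, but were chosen with earlier results of these data known. For each gene, every interval enriched for H3K4me1 that overlapped the gene body or the 50 kb on either side was taken. The control list supplied 73 such intervals out of 64843, and the knockdown list 112 out of 92135.

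In canonical Wnt signalling a secreted ligand binds a Frizzled receptor, the destruction complex stops degrading β-catenin, and β-catenin enters the nucleus and acts through TCF and LEF proteins bound to DNA. The pathway limits itself, because AXIN2, RNF43, ZNRF3 and LGR5 are commonly induced by β-catenin, and RNF43 and ZNRF3 remove Frizzled receptors from the cell surface unless R-spondin and LGR receptors hold them back. In pancreatic cancer, tumours that have lost RNF43 are known to depend on Wnt ligands. H3K4me1 is a histone mark of enhancers and of the flanks of active promoters, and KMT2D (MLL2) is a methyltransferase that places it at enhancers.

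The study profiled SW1990, an established human pancreatic adenocarcinoma line, by ChIP-seq for KMT2D, EBF2 and H3K4me1. The labels name a negative control (NC) and a knockdown of KMT2D (KMT2D-KD), give shRNA as the treatment of both, and name no clone, shRNA sequence or time. Each of the 6 ChIP libraries was a single library of its condition, and 1 input library was named without its condition. With 1 library per condition no test between conditions can be made, so the intervals below cover counting error only, and a difference between the conditions cannot be told apart from a difference between libraries. The level of KMT2D in the knockdown cells is not analysed here.

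Each interval came with a summit, a fold enrichment over background, and a −log10 q. The fragments stacked at the summit were recovered as whole numbers from the fold and the p-value for 64838 of the 64838 solvable NC intervals and 92126 of 92128 in KMT2D-KD. Depth, taken from the lowest background in each list, was 9.89 fragments per 1000 bases in NC and 9.29 in KMT2D-KD, a ratio of 0.939. This estimate assumes the usual MACS2 background and a narrowest interval of 1 fragment length, and the options used are not given in the sources used here. The median −log10 q was 3.52 for the NC list and 4.02 for the KMT2D-KD list. Of the epithelial marker genes fixed for the label check (KRT7, KRT8, KRT18, KRT19, EPCAM and MUC1), 5 of 6 carried an interval within 10 kb of the gene body in NC and 6 of 6 in KMT2D-KD, with 54 and 57 intervals. Endothelial and stromal markers carried them at 4 of 4 genes in both lists, with 25 and 43 intervals, and blood markers at 2 and 3 of 4 genes, with 4 and 12. H3K4me1 intervals alone therefore did not separate these marker classes.

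Before the counts, the sequences under some of these intervals are shown, because the TCF and LEF proteins among the members bind DNA at a site with the core CTTTGAT, here searched on both strands (as CTTTGAT or ATCAAAG) within 100 bases of each summit. The first 5 sequences are, for each member that has one, the interval of highest −log10 q with this core, which is in capitals. All are stretches of hg38 reaching 100 bases to either side of the summit, read on the plus strand. They lie at chr12:71556568-71556768 (coding exon 6 of LGR5 and its flanks, NC), chr22:29032182-29032382 (intron 2 of ZNRF3, NC), chr5:112708881-112709081 (APC, in the gene record ahead of the canonical transcript, KMT2D-KD), chr3:41267851-41268051 (window of CTNNB1, inside the body of the neighbouring gene ULK4, KMT2D-KD) and chr10:112989833-112990033 (intron 4 of TCF7L2, NC).
LGR5: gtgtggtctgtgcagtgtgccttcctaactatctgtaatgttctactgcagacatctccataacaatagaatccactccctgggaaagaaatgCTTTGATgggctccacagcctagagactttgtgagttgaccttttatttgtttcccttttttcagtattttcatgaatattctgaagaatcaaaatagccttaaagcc
ZNRF3: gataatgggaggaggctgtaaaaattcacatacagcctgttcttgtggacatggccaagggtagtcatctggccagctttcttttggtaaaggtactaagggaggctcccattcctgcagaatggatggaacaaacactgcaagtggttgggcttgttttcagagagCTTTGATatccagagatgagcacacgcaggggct
APC: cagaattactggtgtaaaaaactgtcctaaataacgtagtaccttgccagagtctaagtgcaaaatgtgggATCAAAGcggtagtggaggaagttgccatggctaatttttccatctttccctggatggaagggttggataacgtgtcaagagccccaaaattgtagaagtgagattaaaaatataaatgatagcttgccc
CTNNB1: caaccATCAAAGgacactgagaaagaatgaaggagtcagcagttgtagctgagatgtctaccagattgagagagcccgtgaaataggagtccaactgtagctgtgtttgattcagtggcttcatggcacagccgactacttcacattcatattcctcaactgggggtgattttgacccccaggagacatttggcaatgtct
TCF7L2: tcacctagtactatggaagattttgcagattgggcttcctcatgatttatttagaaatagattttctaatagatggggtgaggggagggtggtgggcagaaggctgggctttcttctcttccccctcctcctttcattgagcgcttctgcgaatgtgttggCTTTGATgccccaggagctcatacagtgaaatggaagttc
The core lay 7 bases before the summit in the LGR5 interval and 95 bases before it in the CTNNB1 interval.

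The other 2 sequences are the strongest intervals of LEF1 and AXIN2, members without that core at any summit, and are shown for comparison: chr4:108116638-108116838 in intron 3 of LEF1 (KMT2D-KD) and chr17:65542822-65543022 in intron 3 of AXIN2 (NC). AXIN2 is a standard β-catenin target, and its strongest interval held no CTTTGAT within 100 bases of the summit.
LEF1: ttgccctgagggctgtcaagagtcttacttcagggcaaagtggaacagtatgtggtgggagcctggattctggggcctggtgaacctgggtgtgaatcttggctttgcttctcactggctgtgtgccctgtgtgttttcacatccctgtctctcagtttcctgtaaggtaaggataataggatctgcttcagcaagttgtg
AXIN2: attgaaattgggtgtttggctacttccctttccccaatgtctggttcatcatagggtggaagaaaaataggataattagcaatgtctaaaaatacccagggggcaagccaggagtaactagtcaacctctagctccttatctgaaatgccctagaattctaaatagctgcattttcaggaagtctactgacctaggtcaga
In the 7 printed sequences 86.3% to 98.9% of the 20-base words occurred once in hg38.

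Across the member intervals the core was present at 4 of 73 summits in NC (5.48%, exact 95% interval 1.51 to 13.4) and at 6 of 112 in KMT2D-KD (5.36%, 1.99 to 11.3). Over the whole lists it was present at 3.15% and 2.83% of summits, and the 95% intervals of the members include both values. The shorter word CTTTGA was present at 19.2% of NC and 20.5% of KMT2D-KD member summits against 14.1% and 13.1% of all summits; for KMT2D-KD its interval (13.5 to 29.2) began just above the list value. The AP-1 site TGANTCA was present at 9.59% and 8.04% of member summits against 8.11% and 7.83% over the lists. Median GC content was 44.8% and 46.3% in the member windows and 44.3% and 46.3% in the lists. In RefSeq promoters of this build, CTTTGAT was found in 2.62% of 35116 windows of 300 bases, and in none of the 10 such windows given for FZD5, RNF43, APC, CTNNB1, TCF7L2 and LEF1.

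Pooled over the 10 windows, the member genes had more H3K4me1 intervals in the knockdown cells than in the control cells. The ratio was close to that of other genes, within a wide counting interval. The 73 NC and 112 KMT2D-KD intervals gave a log2 ratio of 0.62 (95% counting interval 0.18 to 1.06). The other 20023 protein-coding genes had 98847 and 152144 intervals counted per window, also a log2 ratio of 0.62 (0.61 to 0.63). An interval near several genes was counted for each of them, so that counting interval is too narrow. The whole lists, where each interval counts once, were 64843 (NC) and 92135 (KMT2D-KD) long. More intervals were found in KMT2D-KD for 8 of 10 members, where 67.8% of all protein-coding genes showed this. Only RNF43 and LEF1 had more in NC (2 of 10, background 9.88%). At least 1.5 times as many intervals in KMT2D-KD were found at WNT7B, FZD5, ZNRF3, AXIN2 and APC (5 of 10, background 52.3%), and at least 1.5 times as many in NC at LEF1 (1 of 10, background 5.55%).

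The size of this surplus changed with the list length, the threshold and the merging of nearby intervals. When the KMT2D-KD list was cut to its 64843 strongest intervals, the members had 73 and 77 intervals (log2 ratio 0.08, −0.40 to 0.56). Other genes then had a log2 ratio of 0.13. More in KMT2D-KD were found at 4 of 10 members, against 41.7% of other genes. Equal list lengths lower by construction a surplus shared by all genes, so this setting cannot show what the surplus depends on. Among intervals with a −log10 q of at least 5 the members had 15 in NC and 33 in KMT2D-KD (log2 ratio 1.14, 0.22 to 2.12), and other genes a log2 ratio of 1.0. At this threshold 8 of 10 members had more in KMT2D-KD, against 49.1% of other genes. They were not the same 8, because LEF1 (0 in NC and 1 in KMT2D-KD) was among them and FZD5, with no such interval, was not. After merging intervals within 1000 bases in each list, the members had 59 in NC and 72 in KMT2D-KD (log2 ratio 0.29, −0.23 to 0.81). At this setting 6 of 10 members had more in KMT2D-KD, and other genes were not counted. WNT7B then had 5 and 5, LGR5 6 and 6, and TCF7L2 20 and 22. In gene bodies alone the log2 ratio was 0.56, and 5 of 10 members had more in KMT2D-KD, against 36.8% of other genes. Strong intervals were thus 20.5% (NC) and 29.5% (KMT2D-KD) of the member intervals, against 25.3% and 32.4% of the lists.

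**Figure D1:**
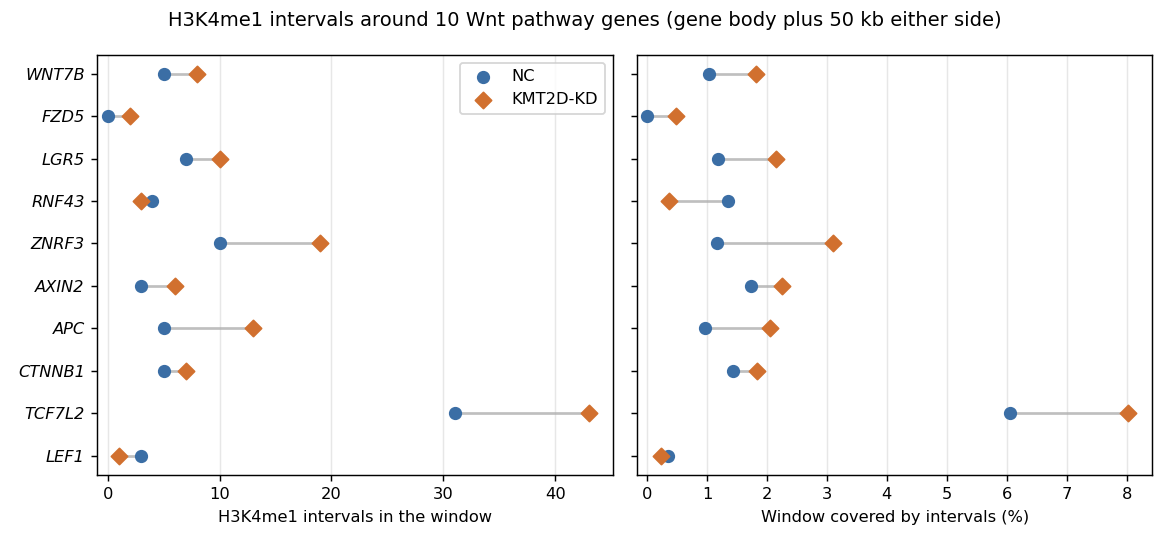
Number of H3K4me1 intervals (left) and percent of the window covered by them (right) for each member gene, with NC as circles and KMT2D-KD as diamonds, 1 library each. RNF43 and LEF1 are the only genes with the NC symbol to the right, and TCF7L2 stands apart with 31 and 43 intervals.

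Coverage gave a similar picture. Intervals covered 36949 bases of the member windows in NC and 54688 in KMT2D-KD, which is 1.83% and 2.7% of the windows, against 1.42% and 2.37% for other genes. The log2 ratio of covered bases was 0.57 for the members and 0.74 for the other genes, and 8 of 10 members had more covered bases in KMT2D-KD (background 75.8%). The median density was 2.64 intervals per 100 kb in NC and 4.37 in KMT2D-KD, against 1.83 and 3.31 for other genes.

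By density the members formed a graded order below TCF7L2, which had 9.77 intervals per 100 kb in NC (exact Poisson 95% interval 6.64 to 13.9) and 13.5 in KMT2D-KD (9.8 to 18.2). ZNRF3 came second in both lists, with 3.65 (1.75 to 6.71) and 6.94 (4.18 to 10.8). In NC it was followed by WNT7B, CTNNB1, LGR5, RNF43, AXIN2, APC, LEF1 and FZD5, and in KMT2D-KD by APC, WNT7B, AXIN2, CTNNB1, LGR5, FZD5, RNF43 and LEF1. Each neighbouring pair in either order had overlapping counting intervals.

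**Figure D2:**
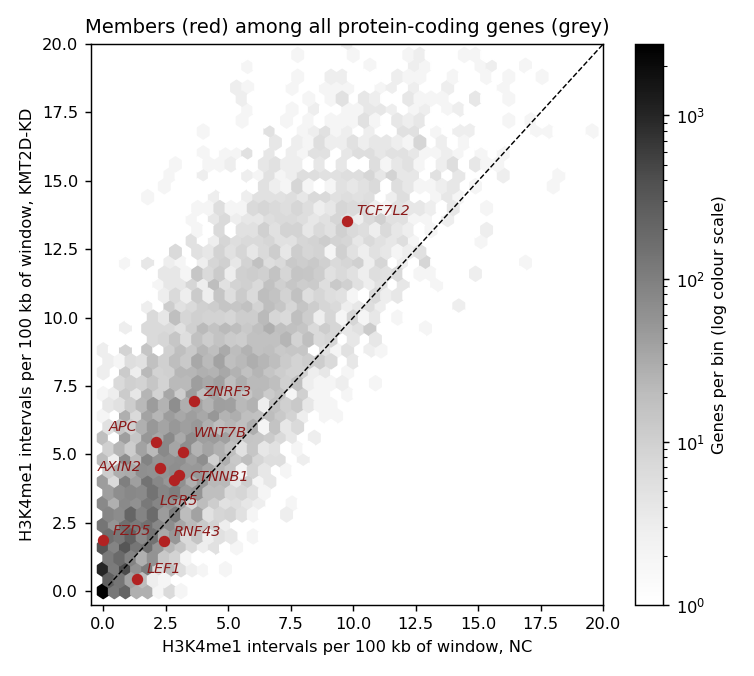
H3K4me1 intervals per 100 kb of window in NC (horizontal) and KMT2D-KD (vertical) for protein-coding genes, with the 10 members in red, all other genes as grey bins and equality as a dashed line; 383 genes lie beyond the axis limit of 20. The members lie within the grey cloud, 8 above the line and RNF43 and LEF1 below it.

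WNT7B encodes a Wnt ligand made by epithelial cells. There were 5 NC and 8 KMT2D-KD intervals in its window (chr22:45870366-46027162, minus strand), covering 1628 and 2834 bases. The log2 ratio of 0.68 had a counting interval of −1.12 to 2.64, so the difference was not detectable at this depth. Of these, 3 in each list overlapped an interval of the other list, 2 were found in NC alone and 5 in KMT2D-KD alone. They fell into a group in introns of the gene and a group upstream of the 5′ end. In the upstream group, chr22:46018522-46018883 (fold 5.31, 13 fragments) was called in KMT2D-KD alone, 354 bases from the nearest NC interval, as was chr22:45954780-45955058 in intron 1 (fold 4.93, 12 fragments). The interval nearest to the WNT7B start lay 20020 bases inside the gene in KMT2D-KD (chr22:45956710-45957142) and 22732 bases inside it in NC (chr22:45953778-45954430).

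FZD5 encodes a Frizzled receptor for Wnt ligands. No NC interval and 2 KMT2D-KD intervals, covering 525 bases, overlapped its window (chr2:207712598-207819906, minus strand), and it was the only member with intervals in KMT2D-KD alone (1 of 10, background 10.8%). Both were weak, with 8 fragments (fold 3.29, −log10 q 2.04) at chr2:207723725-207723937 in the body of CCNYL1 and 7 fragments (fold 2.92, −log10 q 1.48) at chr2:207805950-207806261, 36.0 kb upstream. The nearest NC interval was 152.0 kb from the gene start. With counts of 0 and 2 no fold was given.

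LGR5 encodes an R-spondin receptor known as a marker of stem cells in the intestine. Its window (chr12:71389798-71636310, plus strand) contained 7 NC and 10 KMT2D-KD intervals covering 2928 and 5323 bases (log2 number ratio 0.51, −1.03 to 2.14). The strongest was present in both, 13.2 kb upstream inside the body of TSPAN8, with 18 fragments (fold 5.48) at chr12:71425490-71426559 in NC and 15 fragments (fold 4.82) in KMT2D-KD. A second shared site upstream, also in TSPAN8, had 9 fragments (fold 3.51) in NC and 14 (fold 5.48) in KMT2D-KD, which did not differ beyond counting error. LGR5 was the only member with an interval within 1000 bases of the 5′ end of its gene record, and only in KMT2D-KD: chr12:71439103-71439438 lay 360 bases upstream with 10 fragments (fold 3.32, −log10 q 2.36). The nearest NC interval was 12.3 kb upstream (chr12:71427261-71427461).

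RNF43 and ZNRF3 encode related transmembrane ubiquitin ligases that remove Frizzled receptors. Their number ratios had opposite signs, each within counting error of no change. After merging intervals within 1000 bases, RNF43 had 3 in each list, and ZNRF3 had 10 in NC and 11 in KMT2D-KD. For RNF43 (chr17:58303676-58467595, minus strand) 4 NC and 3 KMT2D-KD intervals covered 2220 and 596 bases. The number ratio was uninformative (log2 −0.42, −3.19 to 2.15). The log2 ratio of covered bases was −1.90, and the NC intervals were wider, with a median of 640.0 against 186.0 bases. All 4 NC intervals lay in intron 2. The strongest, chr17:58391180-58391442 with 16 fragments (fold 5.51, −log10 q 6.48), was the strongest member interval found in NC alone, although it lay 316 bases from a KMT2D-KD interval with 11 fragments (fold 4.23). The other shared site had 14 fragments in NC (chr17:58402338-58402977, fold 4.32) and 10 in KMT2D-KD (chr17:58402185-58402370, fold 3.73). An alternative RefSeq promoter of RNF43 at chr17:58402672-58402971, which holds a TGANTCA word, was overlapped by the NC interval and not by the KMT2D-KD interval, which lay 351 bases from that transcript start.

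For ZNRF3 (chr22:28833572-29107488, plus strand) the counts were 10 and 19 intervals, and the covered bases 3181 and 8478 (log2 number ratio 0.93, −0.25 to 2.19). Of the NC intervals, 8 overlapped a KMT2D-KD interval, whereas 11 of the KMT2D-KD intervals overlapped none in NC. In 6 of 8 shared pairs the fold was higher in KMT2D-KD. The shared site nearest to the start, 25.2 kb inside intron 1 at chr22:28908731-28909031, had 15 fragments in NC and 13 in KMT2D-KD. The strongest interval of the window, chr22:29079993-29081151, lay beyond the gene in the body of KREMEN1, which encodes a receptor for the Wnt inhibitor DKK. It had 21 fragments (fold 8.03, −log10 q 12.6) in KMT2D-KD and 11 (fold 4.21) in NC, a depth-scaled log2 ratio of 1.02 (−0.09 to 2.22). Beside it, chr22:29081618-29082172 (11 fragments, fold 4.21) was found in NC alone.

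AXIN2 encodes the inducible scaffold of the destruction complex. The counts in its window (chr17:65478563-65611648, minus strand) were 3 in NC and 6 in KMT2D-KD, covering 2301 and 2993 bases (log2 number ratio 1.0, −1.23 to 3.63). Both lists held the same 2 sites in intron 3. The broad site was 1760 bases wide in NC (chr17:65542144-65543903, 16 fragments, fold 5.82) and 1438 bases in KMT2D-KD (13 fragments, fold 5.16), and it was the widest NC interval of any member. The 4 intervals found in KMT2D-KD alone lay outside the gene body, each over 10 kb from any NC interval, with 10 to 12 fragments. The closest of them to the start, chr17:65564012-65564388, was 2.36 kb upstream (12 fragments, fold 4.41), where the nearest NC interval was 14.4 kb inside the gene.

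APC encodes the large scaffold of the destruction complex, which is lost in most colorectal tumours. There were 5 NC and 13 KMT2D-KD intervals in its window (chr5:112657518-112896239, plus strand), covering 2303 and 4904 bases. This was the largest number ratio among members with intervals in both lists (log2 1.38, −0.20 to 3.22), and its counting interval included 0. All 5 NC intervals were found in KMT2D-KD, which added 8, and 4 of those lay within 1000 bases of an NC interval. Near the 5′ end of the gene record, chr5:112709293-112709973 had 16 fragments (fold 6.44) in KMT2D-KD against 9 (fold 3.5) in NC. A further KMT2D-KD interval, chr5:112776595-112776845 in intron 5 (13 fragments, fold 5.16), lay 39764 bases from any NC interval. The canonical APC transcript starts 30367 bases inside the gene record, and around that start the nearest interval was 578 bases away in KMT2D-KD (9 fragments, fold 3.02) and 1054 bases away in NC (12 fragments, fold 4.56).

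CTNNB1 encodes β-catenin. NC had 5 intervals and KMT2D-KD 7 in its window (chr3:41144741-41310096, plus strand), covering 2374 and 3034 bases (log2 number ratio 0.49, −1.39 to 2.48). All 5 NC intervals were found in KMT2D-KD, and the fold was higher in KMT2D-KD in 4 of the 5 pairs. The strongest, chr3:41267724-41268423, was one of the printed sequences with a TCF core and lay in the body of ULK4, 73.0 kb from the start. It had 17 fragments (fold 6.31) in KMT2D-KD and 9 (fold 3.24) in NC, and the counting interval of their depth-scaled log2 ratio ran from −0.24 to 2.36. The broadest site, 1296 bases wide in NC at chr3:41158977-41160272, had 14 fragments in both. The interval nearest to the start of the gene record was 6.34 kb upstream in KMT2D-KD (chr3:41188097-41188396) and 8.05 kb inside it in NC (chr3:41202796-41203078). The canonical CTNNB1 transcript starts 4764 bases inside the gene record. From that start the nearest interval was at the same shared site in both lists, 3.29 kb away in NC and 3.35 kb in KMT2D-KD.

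TCF7L2 encodes TCF4, the main DNA-binding partner of β-catenin in epithelial cells, and it carried by far the most intervals. Its window (chr10:112900247-113217678, plus strand) had 31 in NC and 43 in KMT2D-KD, covering 19230 and 25488 bases, or 6.06% and 8.03% of the window. Its density of 9.77 and 13.5 intervals per 100 kb was higher than that of 93.7% and 93.0% of other protein-coding genes. Thus TCF7L2 supplied 31 of 73 and 43 of 112 of all member intervals. The number ratio (log2 0.47, −0.23 to 1.19) was below the pooled one, and the other 9 members had 42 and 69 intervals (log2 0.72, 0.14 to 1.31).

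The TCF7L2 intervals were not spread evenly. From the 5′ end to 25 kb there were 9 in NC and 11 in KMT2D-KD, from 25 to 90 kb 3 and 6, and from 90 to 150 kb 11 and 20. Upstream of the gene there were 6 and 5, and beyond 150 kb 2 and 1. Joining intervals within 1000 bases of each other gave 24 regions, of which 14 were present in both, 3 in NC alone and 7 in KMT2D-KD alone, and the longest spanned 6715 bases. Of the 20 intervals found in KMT2D-KD alone, 10 lay within 1000 bases of an NC interval. The interval nearest to the 5′ end was 5.57 kb inside the gene in NC (chr10:112955816-112956855) and 3.31 kb inside it in KMT2D-KD (chr10:112953556-112953846).

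The strongest member interval in either list was chr10:112963470-112965149, in intron 3 of TCF7L2. It had 26 fragments (fold 9.96, −log10 q 17.9) and a width of 1680 bases in KMT2D-KD. In NC it was overlapped by 2 intervals, the stronger with 14 fragments (fold 5.07, −log10 q 5.37) over 570 bases. The other, chr10:112964598-112964919, had 12 fragments over 322 bases. The depth-scaled log2 ratio of the 26 and 14 fragments was 0.98 (−0.01 to 2.03). The next, chr10:113085552-113087410, had 25 fragments (fold 9.87) against 15 (fold 5.62) in NC, with nearly equal widths of 1859 and 1757 bases. Both lay above the ranges of the rest of the TCF7L2 pairs in KMT2D-KD. Neither differed from NC beyond counting error at the depth ratio of 0.939, the first only narrowly. The widest interval of any member, 2607 bases at chr10:113057737-113060343, had 17 fragments in KMT2D-KD and 14 in NC. Among intervals found in KMT2D-KD alone, chr10:113071750-113071984 in intron 5 was the strongest of all members (15 fragments, fold 5.63), and chr10:112916141-112916802 upstream had 15 fragments with a fold of 4.63. Those found in NC alone reached folds of 4.57 at chr10:112989797-112990367, which is the printed TCF7L2 sequence, 4.19 at chr10:113000487-113000812 and 4.16 at chr10:113133446-113133700.

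LEF1 encodes a related factor, best known from lymphoid cells and hair follicles. In its window (chr4:107997545-108218956, minus strand) 3 NC intervals and 1 KMT2D-KD interval covered 784 and 513 bases. The log2 ratio of −1.58 had a counting interval of −7.30 to 2.05. At a −log10 q of at least 5 the order was reversed, with 0 in NC and 1 in KMT2D-KD. The single KMT2D-KD interval, chr4:108116620-108117132 in intron 3, overlapped the strongest NC interval and had the higher fold (6.07 with 15 fragments against 4.56 with 12). Both intervals found in NC alone had 10 fragments (fold 3.86), and of these chr4:108117910-108118129 was the NC interval nearest to the start, at 50.8 kb. LEF1 density was higher than that of 43.0% of other genes in NC and 16.9% in KMT2D-KD, in contrast to TCF7L2.

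**Figure D3:**
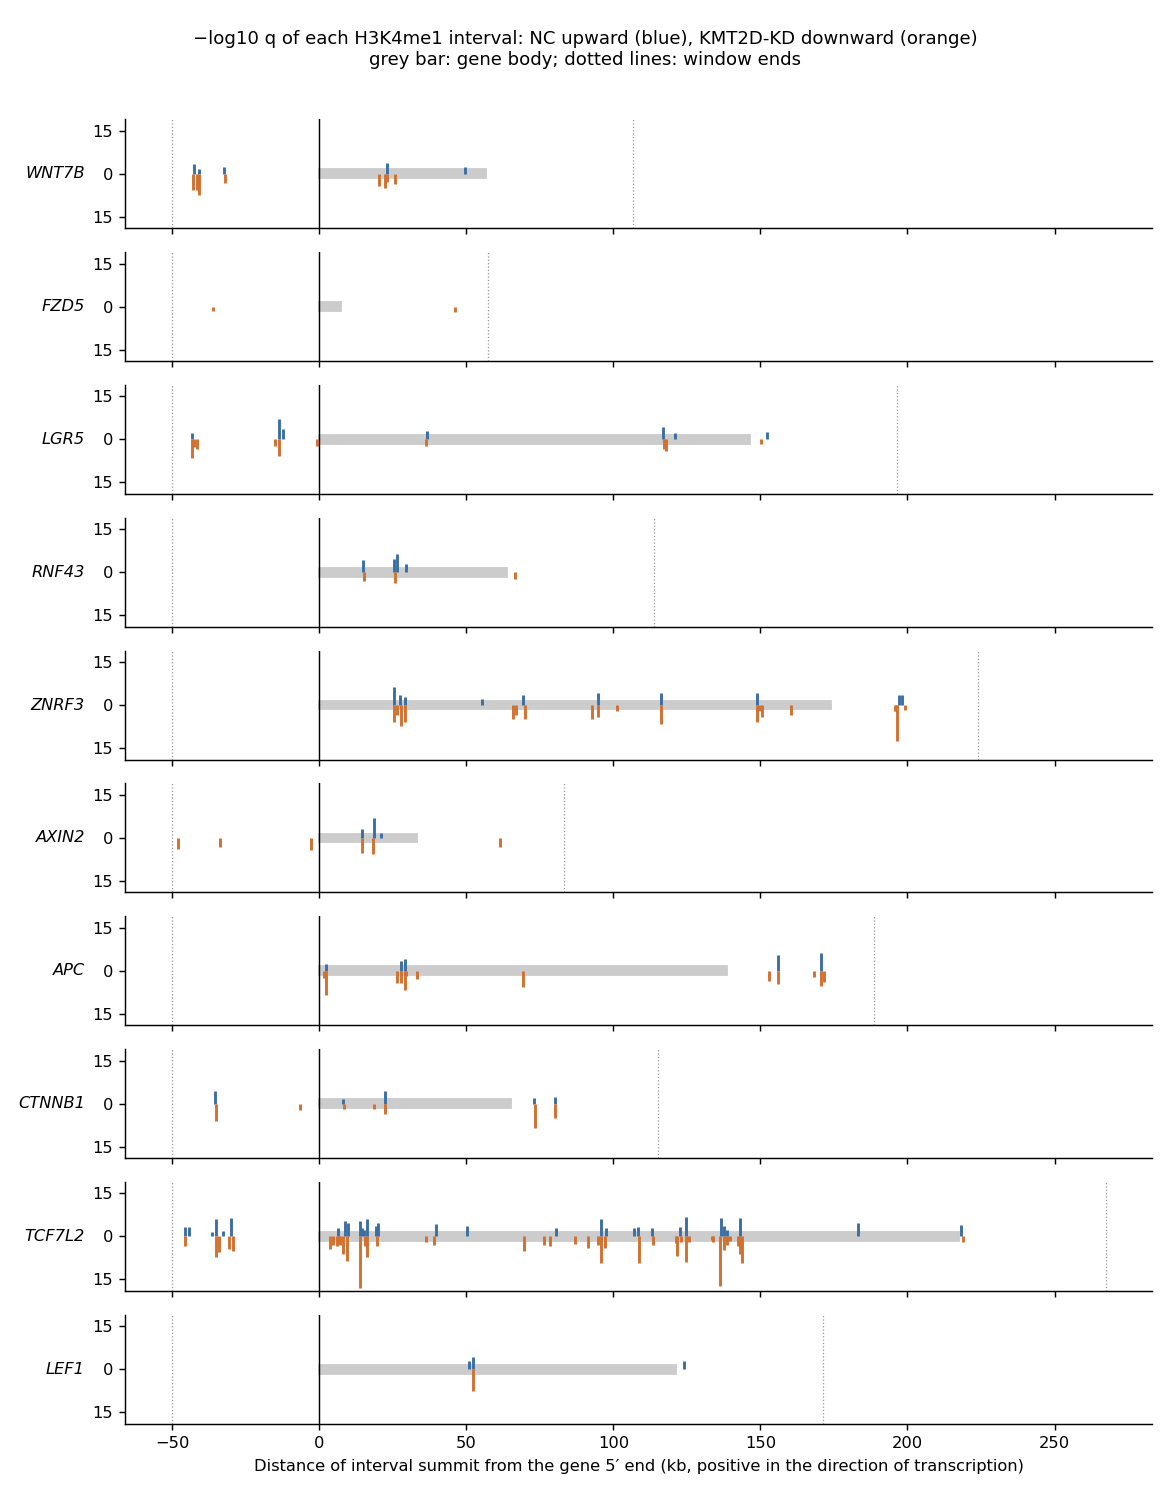
Position of each H3K4me1 interval summit relative to the 5′ end of the member gene (horizontal, kb) and its −log10 q (vertical, NC upward in blue and KMT2D-KD downward in orange). The dense clusters over TCF7L2 and the empty NC track of FZD5 can be seen, and the tallest lines are the KMT2D-KD intervals of TCF7L2 and the one beyond ZNRF3.

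Most member intervals lay inside introns, namely 47 of 73 in NC (64.4%) and 69 of 112 in KMT2D-KD (61.6%). A further 13 and 21 were upstream, 9 and 16 downstream, and 3 and 6 in a part of the gene record that the canonical transcript does not cover. None of the intervals had its summit in a UTR exon, and 1, the NC interval of LGR5 printed above, had it in a coding exon. In NC 16 intervals, and in KMT2D-KD 26, overlapped the body of another coding gene, read-through gene records included.

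Few members, like few protein-coding genes in general, carried H3K4me1 within 1000 bases of their start. Within 1000 bases of the 5′ end of the gene record, 0 of 10 members had an interval in NC and 1 of 10 in KMT2D-KD (LGR5), against 6.43% and 11.9% of all protein-coding genes. Within 5 kb there was 1 member in NC (APC) and 4 in KMT2D-KD (LGR5, AXIN2, APC and TCF7L2), against 30.2% and 42.9%. The nearest interval was a median of 14.5 kb from the 5′ end for the control list and 10.8 kb for the knockdown list. It was nearest at APC in NC, 1.92 kb inside the gene record. When any annotated transcript start was accepted, RNF43 and TCF7L2 had an interval within 1000 bases in NC, and LGR5, RNF43 and APC in KMT2D-KD. Members had 1 (FZD5) to 48 (CTNNB1) annotated starts, and the share of all protein-coding genes under this rule was not counted.

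Members were then compared interval by interval, to ask whether the same sites were marked in both conditions. Of the NC intervals, 52 of 73 overlapped a KMT2D-KD interval (71.2%, exact 95% interval 59.4 to 81.2), and of the KMT2D-KD intervals 53 of 112 overlapped an NC interval (47.3%, 37.8 to 57.0). The whole lists gave 69.7% and 46.6%. As in the whole lists, intervals found in both were stronger. Their median −log10 q was 4.16 in NC and 5.6 in KMT2D-KD, against 2.85 and 2.94 for those found in 1 list, where the whole lists had 4.16 and 5.3 against 2.85 and 3.32. Their median widths were 402.0 and 586.0 bases against 255.0 and 265.0. Of the intervals found in 1 list, 11 of 21 in NC and 25 of 59 in KMT2D-KD lay within 1000 bases of an interval of the other list.

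**Figure D4:**
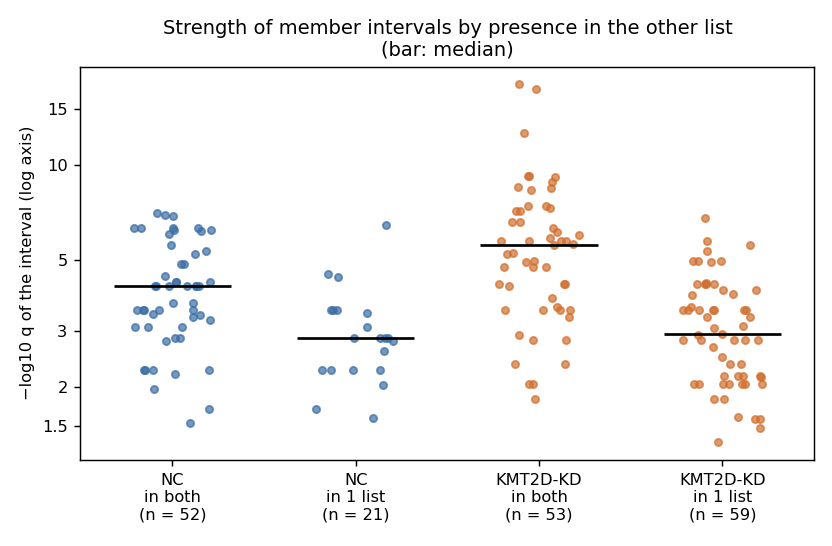
−log10 q (vertical, log axis) of each member interval in NC and KMT2D-KD, split by whether it overlapped an interval of the other list, with the median as a bar. The intervals in both lists (52 and 53) lie higher than those in 1 list (21 and 59), and the ranges overlap.

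Strong intervals were mostly present in both lists, as they were over the whole lists. Of the 15 NC member intervals with a −log10 q of at least 5, 93.3% overlapped an interval in the full KMT2D-KD list, and of the 33 in KMT2D-KD 87.9% overlapped one in the full NC list. The same shares over all strong intervals were 91.5% and 74.8%, which the members' exact 95% intervals (68.1 to 99.8 and 71.8 to 96.6) include. The exceptions were 1 interval in NC (at RNF43) and 4 in KMT2D-KD (2 at TCF7L2, 1 at WNT7B and 1 at APC). After joining intervals within 1000 bases, the 10 windows held 80 regions, of which 42 were present in both (52.5%), 10 in NC alone (12.5%) and 28 in KMT2D-KD alone (35.0%), against 47.4%, 14.2% and 38.4% of the 65908 regions of the whole lists.

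At the 53 shared pairs the signal was also compared directly. The fold was higher in KMT2D-KD in 33 of them (62.3%), where 63.3% of all shared intervals showed this, and the median log2 ratio of folds was 0.18 against 0.13. Fragments at the summit ranged from 8 to 18 in the NC member intervals, with a median of 12.0, and from 7 to 26 in KMT2D-KD, with a median of 11.0. After scaling for depth, the log2 ratio of fragments ranged from −0.44 to 1.02. At the depth ratio of 0.939 it exceeded counting error in none of the 53 pairs, in either direction. Of all shared intervals, 0.958% did so upward in KMT2D-KD and 0.147% downward. Scaling by the lowest background itself (1.85 fragments in NC and 1.64 in KMT2D-KD) was not run and would raise every ratio slightly. The strongest TCF7L2 pair, whose counting interval began at −0.01, could then exceed counting error. At these fragment numbers and the depth ratio of 0.939, even the largest ratio seen (1.02 in the ZNRF3 window, −0.09 to 2.22) was not detectable at a single site.

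**Figure D5:**
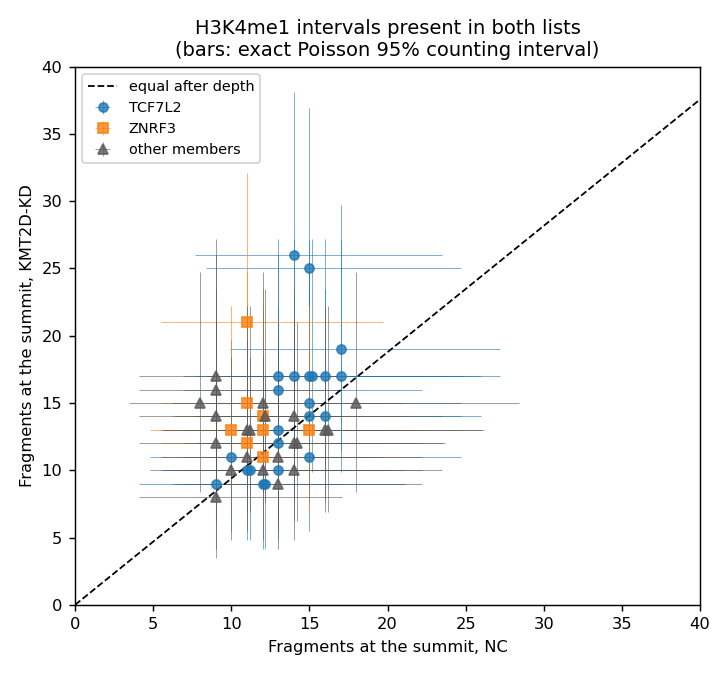
Fragments at the summit in NC (horizontal) and KMT2D-KD (vertical) for the 53 shared pairs, with exact Poisson 95% intervals as bars, points of equal value shifted slightly, and a dashed line for equality after depth scaling. Most points lie near the line, and the highest are the pairs of TCF7L2 with 26 and 25 fragments and of ZNRF3 with 21.

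The KMT2D and EBF2 libraries had few intervals, and they were searched in the same windows. The KMT2D lists were 238 (NC) and 318 (KMT2D-KD) intervals long, and 0 and 1 of these lay in a member window. The EBF2 lists were 293 and 311 intervals long, with 1 and 2 in a member window. All lay in the AXIN2 window, about 73.3 kb downstream of the AXIN2 start. They were the NC EBF2 interval chr17:65487938-65488351 (fold 12.8), the KMT2D-KD EBF2 interval chr17:65488156-65488351 (fold 12.7) with a weaker one beside it at chr17:65487780-65487974 (fold 4.78), and the KMT2D-KD KMT2D interval chr17:65488195-65488351 (fold 12.1). None of them overlapped an H3K4me1 interval of either list. Those with folds of 12.1 to 12.8 ended at the same base in the EBF2 and KMT2D libraries. Whether this site reflects binding of either protein was not tested. The share of all gene windows holding such an interval was not counted.

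The wider Wnt pathway, a list of 74 further genes, gave a ratio close to that of the members. Its windows overlapped 471 distinct NC and 709 distinct KMT2D-KD intervals (log2 ratio 0.59, 0.42 to 0.76), with more in KMT2D-KD at 56 genes (75.7%, background 67.8%), more in NC at 7 and equal numbers at 11. No interval of either list lay in the windows of 7 genes, which are among the 11. By role, all 18 ligand genes had more in KMT2D-KD (86 and 152 distinct intervals, some near several ligand genes), as did 9 of 10 cytoplasmic and destruction complex genes (77 and 123), 9 of 10 nuclear factors (48 and 78) and 9 of 14 receptors (126 and 197). More were found in KMT2D-KD at 5 of 10 secreted inhibitors (42 and 52 intervals) and 3 of 6 genes of the R-spondin axis (65 and 72). The same held for 2 of 4 intracellular feedback inhibitors (5 and 8) and 1 of 2 ligand secretion genes (22 and 27). Of these, 4 secreted inhibitors, 1 R-spondin axis gene and 1 intracellular feedback inhibitor had no interval in either list. The shares of these roles and of the receptors were below the background of 67.8%, which also counts genes without intervals. Differences between roles were not tested. The largest surplus in KMT2D-KD was at the receptor gene ROR2 (27 and 55), followed by DVL2, which relays the signal (6 and 20), and by the neighbouring ligand genes WNT1 and WNT10B, whose windows shared the same 10 and 22 intervals. The largest surplus in NC was 2 intervals, at the R-spondin receptor gene LGR4 (45 and 43), the kinase gene GSK3B (30 and 28) and the Frizzled gene FZD6 (6 and 4).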

How the data were processed

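H3K4me1, KMT2D and EBF2 ChIP-seq of SW1990 cells was used, 1 library per target and condition. Per the labels and the study's methods, reads were cleaned with in-house scripts and aligned with BWA to hg38, and intervals were called with MACS2 against an input; HOMER is also named, and versions are not given in the sources used here. The authors deposited 1 narrowPeak list per library, holding positions, a display score, the fold enrichment (a ratio), −log10 p and −log10 q of each interval. Groups were taken from the labels, and the input has no file here.

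Positions are given 1-based. Gene models were GENCODE release 44 (hg38), restricted to 20033 protein-coding genes outside the mitochondrial genome, with read-through gene records kept. An interval was assigned to a window, or found in the other list, at an overlap of at least 1 base. Shares have Clopper-Pearson 95% intervals, and number ratios have intervals derived from the exact binomial one, which cover counting error only. Fragments at summits were solved from fold and p, accepted within 0.001 of a whole number. Depth was the lowest background divided by the narrowest width. Overlap, counting and fragment recovery were tested on simulated data. Python 3.11.15, NumPy 2.4.6, pandas 2.3.3 and SciPy 1.17.1 were used.

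All members were named. Intervals named were the strongest of each member, the nearest to each 5′ end, the 5 strongest per list absent from the other, and any KMT2D or EBF2 interval; in the wider list, the 3 genes with the largest surplus each way, ties included. The strongest interval of WNT7B is not reported here. Other intervals named for width or position were chosen after their values were seen. Members, lists and sequences were chosen with earlier results of these data known. Promoter sequences came from RefSeq for hg38, and those of WNT7B, LGR5, ZNRF3 and AXIN2 were not used here. Alternatives covered thresholds, list length, windows, intervals on other coding genes (read-through records aside), overlap, motif words and leaving out members.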

Additional observations from a re-analysis of the deposited data

How the results depend on the processing

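The log2 number ratio of 0.62 stayed positive under each alternative that was run. It moved outside its counting interval when both lists were restricted to a −log10 q of 5 or more (1.14) and with equal numbers of top intervals (0.08), where the counting interval included 0, as it also did after merging intervals within 1000 bases (0.29). Leaving out 1 member at a time gave 0.54 (without APC) to 0.72 (without TCF7L2), and 0.45 to 0.72 for covered bases. The number of members with more intervals in KMT2D-KD, 8, became 4 with equal numbers and 5 in the gene body alone, against 41.7% and 36.8% of other genes.

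The shares found in the other list moved under the most settings. For NC, 71.2% became 57.5% at an overlap of 50%, 86.3% within 1000 bases and 93.3% for counted intervals with a −log10 q of 5 or more. For KMT2D-KD, 47.3% became 30.4%, 69.6% and 87.9% under the same settings, 32.1% at a fold of 5 or more and 59.7% with equal numbers. Members with H3K4me1 within 1000 bases of the start numbered 0 in NC and 1 in KMT2D-KD. They became 2 and 3 with any transcript start and 1 and 3 within 3000 bases. At a −log10 q of 5 or more, KMT2D-KD had 0. For these alternatives the share of all protein-coding genes was not counted. The TCF share became 19.2% in NC and 20.5% in KMT2D-KD with CTTTGA. The cause of each was not tested. Of 110 values under alternatives, 91 stayed within their counting interval or 1.5 times the count. Ratios of single members changed sign in 4 of 64 cases, all inside wide intervals. Cases with no interval in 1 of the lists have no finite ratio and are not among the 64. LEF1 is such a case at a −log10 q of 5 or more, with 0 in NC and 1 in KMT2D-KD, the reverse of its main counts. No paired analysis was possible because each condition has 1 library. Depth, with 7 to 26 fragments at a summit, limits any statement on a single site.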
